A study of Mus musculus with 54 samples.

Results

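The effect of mutant SOD1 on spinal motor neurons was compared with its effect on the motor neurons that move the eyes, at P112 (a postnatal day), in 14 of the series' 54 libraries. The 14 were chosen by nucleus and age alone. They held lumbar spinal motor neurons (SC) in 3 mSOD and 5 wild-type libraries and neurons of the oculomotor and trochlear nuclei (CN3/4) in 3 mSOD and 3 wild-type libraries, with 1 library counted as 1 replicate. P56 libraries of the same nuclei, from the pre-symptomatic stage, are set beside them: 5 mSOD and 5 wt of SC, and 3 mSOD and 3 wt of CN3/4. The mSOD mice carried the human SOD1G93A transgene and wild-type (wt) littermates did not, and the labels place P112 in the symptomatic stage. The neurons were cut out of tissue by laser capture microdissection and their polyadenylated RNA was sequenced with the Smart-seq2 protocol. The submitters call the libraries of a group biological replicates, and no label names the animal behind each. The value of interest was a difference of differences: the mSOD minus wt change in SC, minus the mSOD minus wt change in CN3/4. It is written below as the difference, on a log2 scale, and a negative value means that mSOD was lower relative to wt in SC than it was in CN3/4.

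Mice with the mutant human SOD1 transgene are a model of amyotrophic lateral sclerosis, in which motor neurons degenerate and muscles lose their innervation. Spinal motor neurons, above all those that drive fast-twitch muscle fibres, are known to be lost early in this model, whereas the oculomotor and trochlear neurons are known to be relatively spared. A motor neuron whose axon is damaged is known to switch on a set of regrowth and stress genes, of which Atf3, Jun, Sprr1a and Gap43 are standard markers. Unfolded protein and shortage of amino acids are known to act through the transcription factor ATF4 on genes for amino acid synthesis and uptake.

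Each library held 1071477 to 5135315 counts, with a median of 3632696, and between 18018 and 23135 genes were detected per library. The human SOD1 entry made up 3.95% to 6.22% of the counts in the 6 mSOD libraries and at most 0.00176% in the 8 wt libraries. Its mean share in mSOD was 5.12% ± 1.12 (SD, n = 3) in SC and 4.47% ± 0.462 (SD, n = 3) in CN3/4, which differed by 0.649 percentage points (two-sided exact permutation p = 0.4, smallest possible 0.1). Mouse Sod1 was measured at 417 to 851 CPM (counts scaled to a common library size) across the 14 libraries and its difference was 0.48 (SE 0.33, adjusted p 0.839). Library names carried a project prefix. At P112 all CN3/4 libraries came from project P10814. The SC mSOD libraries came from 3 projects (replicate 1 from P10814, replicate 2 from P11355 and replicate 3 from P6362). The SC wt libraries came from 2 (replicates 1 and 2 from P10814, the other 3 from P6362). At P56 all SC mSOD libraries came from P6362 and all CN3/4 libraries from P11355. SC wt replicates 1 and 2 at P56 came from P11355 and the other 3 from P6362. Nucleus, genotype and project were thus partly tied at both ages.

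Position markers separated the nuclei as labelled. The summed level of 11 motor neuron markers was 1852 to 2951 CPM in SC mSOD, 2059 to 3288 CPM in SC wt and 2077 to 2605 CPM in CN3/4. The summed level of 17 Hox genes, which mark hindbrain and cord, was 193 to 448 CPM in SC and at most 0.446 CPM in CN3/4. The 8 oculomotor and midbrain position genes summed to 56.5 to 83.2 CPM in CN3/4 and to at most 13.1 CPM in SC. Mnx1, a homeobox gene of spinal motor neurons, was at 0 in all 6 CN3/4 libraries.

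Summed levels of some markers of other cells moved with genotype within both nuclei, and their part in the results below was not tested. The summed astrocyte, oligodendrocyte and endothelial markers overlapped between mSOD and wt in both nuclei. S100b and Aldoc led the astrocyte sum. Gfap, on the same list, had 178, 129 and 142 counts in SC mSOD and 2 to 78 in SC wt, not scaled for depth. Of the 12 astrocyte markers 0 had an adjusted p under 0.05 in SC. An unadjusted p under 0.05 was found for 1, with a positive change (8.33%, against 9.87% of all genes). Of the microglia, inhibitory interneuron and glutamatergic neuron markers tested, 0 had an adjusted p under 0.05 in SC. The same held for the Edinger-Westphal markers in CN3/4. The 15 microglia markers summed to 118, 52.2 and 45.8 CPM in the SC mSOD libraries, against 15.1 to 25.5 CPM in SC wt and 12.7 to 28.1 CPM in CN3/4; 4 and 8 of the 15 were at 0 in SC mSOD replicates 2 and 3. The 8 inhibitory interneuron markers summed to 176, 384 and 528 CPM in SC mSOD and to 62.2 to 113 CPM in SC wt replicates 2 to 5, but to 335 CPM in SC wt replicate 1. The 7 glutamatergic neuron markers summed to 40.6, 298 and 183 CPM in SC mSOD and to at most 20.8 CPM in SC wt replicates 2 to 5, but to 163 CPM in SC wt replicate 1; 4 or 5 of the 7 were at 0 in each SC mSOD library. The motor neuron markers summed to 2951, 1852 and 1931 CPM in SC mSOD and to 2866 to 3288 CPM in SC wt replicates 2 to 5, but to 2059 CPM in SC wt replicate 1. Of these 11 markers 0 passed in SC, 9 had a negative change there and 4 had an unadjusted p under 0.05, all 4 negative, with a median of −0.44. SC wt replicate 1 stood apart from its group, and some values without it are given below. In CN3/4, 4 markers of the peptide-containing neurons of the adjoining Edinger-Westphal nucleus (Ucn, Cartpt, Cck and Postn) summed to 8292, 7497 and 22345 CPM in mSOD and to 5851, 2221 and 5176 CPM in wt, without overlap. CN3/4 wt replicate 3 held 247 CPM of monoamine neuron markers, led by Tph2 at 89.8 CPM, where the other 13 libraries held at most 34.7 CPM.

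**Figure D1:**
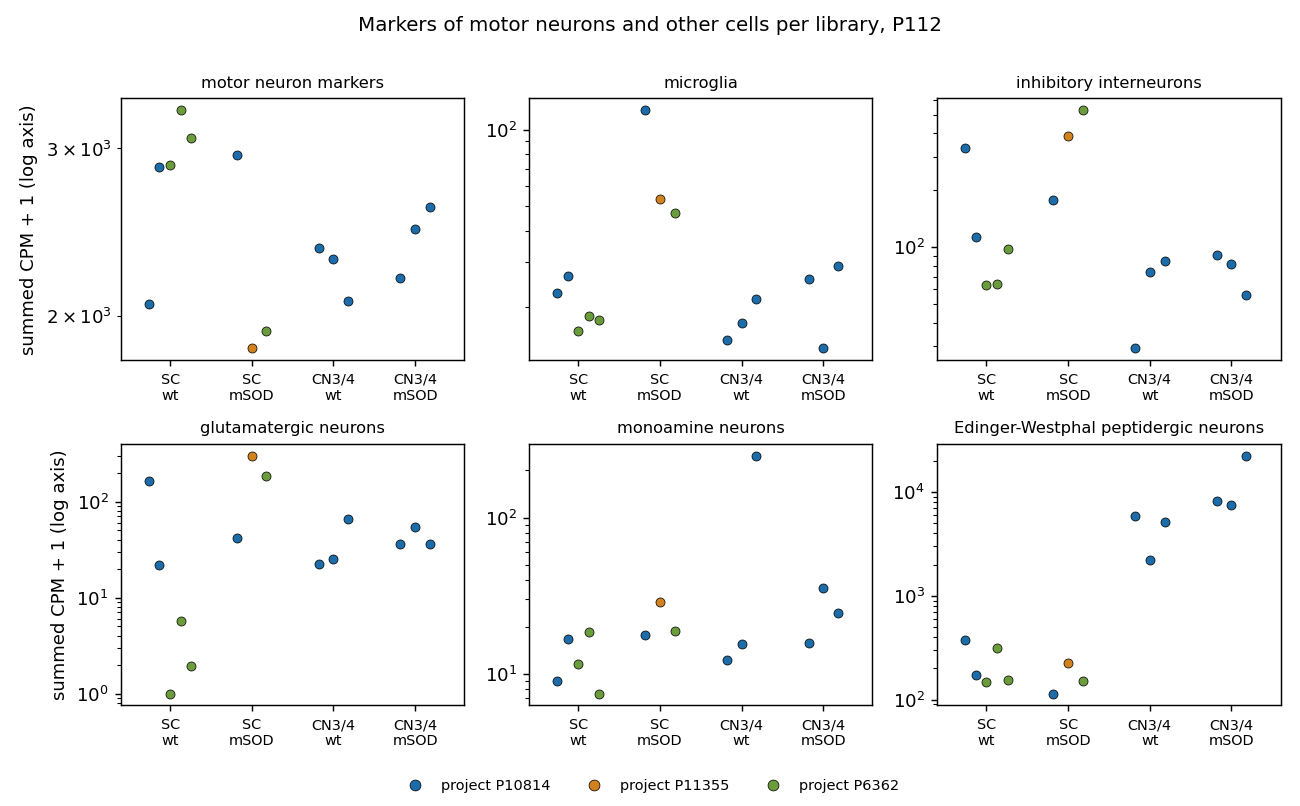
Summed CPM plus 1 (log axis) of 6 marker lists in each of the 14 P112 libraries, by nucleus and genotype, with points coloured by project. Microglia markers were at 45.8 CPM or more in the 3 SC mSOD libraries and at most 28.1 CPM elsewhere, and Edinger-Westphal markers were at 7497 CPM or more in the 3 CN3/4 mSOD libraries.

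The comparison asked which genes responded to mSOD in one nucleus and not to the same degree in the other. Across 18493 mouse genes tested, 1 had a difference with an adjusted p under 0.05 (0.00541%), Hpcal1, and it was lower. At an unadjusted p under 0.05 there were 1289 genes (6.97%). In SC alone, 87 genes passed (0.470%), 36 higher (0.195%) and 51 lower (0.276%) in mSOD, and 1825 (9.87%) had an unadjusted p under 0.05. In CN3/4 alone 0 genes passed with edgeR's quasi-likelihood test, 587 had an unadjusted p under 0.05 (3.17%), and DESeq2 called 4. The standard error of the difference had a median of 0.64 on the log2 scale, against 0.44 for the SC effect and 0.46 for the CN3/4 effect. Single libraries moved these counts: without SC wt replicate 1 there were 28 genes in the difference and 174 in SC. Besides Hpcal1, the 28 held 14 genes named below: Atp8a1, Cd44, Chodl, Dgkk, Dkk3, Gm20939, Itm2a, Kyat3, Ntm, Rab3b, Rgs10, Slc10a7, Sv2a and Tubb6. Without SC mSOD replicate 1 there were 11 in the difference. The difference had 4 genes without SC mSOD replicate 2 or SC wt replicate 4, and 3 without CN3/4 wt replicate 3. SC had 20 genes without SC mSOD replicate 3, 34 without SC wt replicate 2 and 48 without SC wt replicate 3. Within project P10814, which holds 1 SC mSOD and 2 SC wt libraries, there were 3 in the difference and 31 in SC.

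Of the 36 genes higher in SC, 18 had a positive change in CN3/4 and the median change there was 0.03, against a median of 1.99 in SC. Of the 51 genes lower in SC, 28 had a negative change in CN3/4 and the median there was −0.05, against −1.59 in SC. Both sets were picked for their SC change in these same libraries, so larger medians in SC than in CN3/4 follow from the selection. The medians over all genes tested were −0.01 in SC and 0.00 in CN3/4. In bulk samples a smaller share of a neuron type and less RNA of its genes per cell cannot be told apart. Over 10064 genes with a mean log2 CPM above 3, the SC and CN3/4 changes had a Pearson correlation of −0.04; this is across genes, which share libraries and one fit and are not independent replicates.

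**Figure D2:**
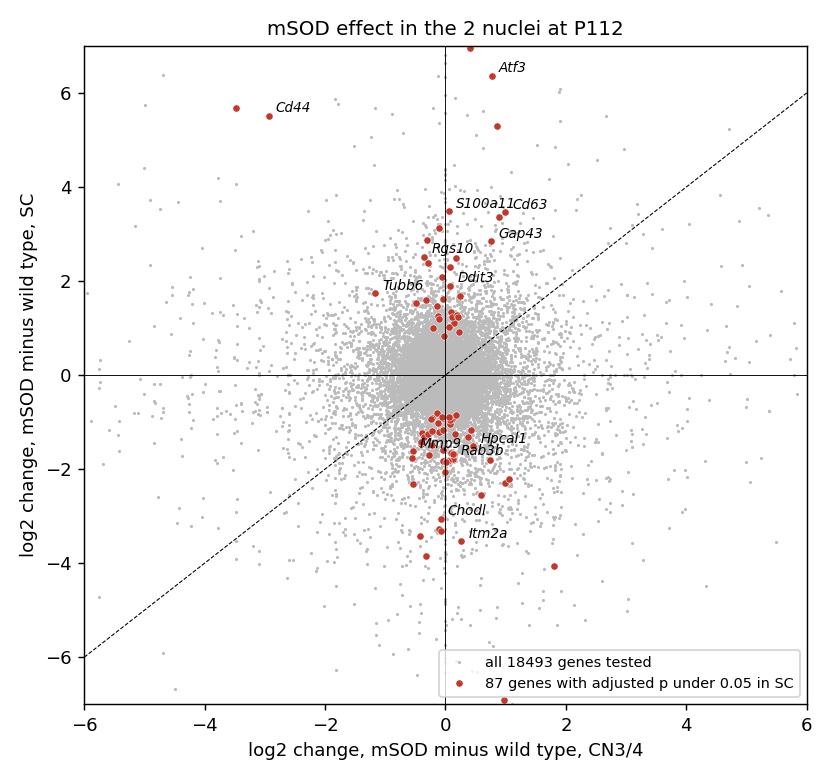
Fitted log2 change from wt to mSOD in CN3/4 (horizontal axis) and SC (vertical axis) at P112 for 18493 genes, of which 11 lie outside the axes; red points are the 87 genes with an adjusted p under 0.05 in SC and the dashed line marks equal change. The red points, which were picked for their SC change, spread along the vertical axis. They lie near 0 on the horizontal one, with Cd44 among the exceptions.

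Hpcal1 (ENSMUSG00000071379) encodes hippocalcin-like protein 1, a member of the neuronal calcium sensor family, whose proteins bind calcium and change their hold on membranes. It was measured at 72.6, 53.1 and 82.4 CPM in the SC mSOD libraries and at 154, 228, 314, 202 and 222 CPM in SC wt. In CN3/4 it was measured at 43.1, 19 and 40 CPM in mSOD and at 24.9, 20 and 29 CPM in wt. The SC groups did not overlap (884 genes, 4.78%, did not), the CN3/4 groups did, and each SC mSOD library still lay above each CN3/4 library. Hpcal1 fell by 1.52 in SC (SE 0.22, adjusted p 0.000164) and had a change of 0.46 in CN3/4 (SE 0.24, adjusted p 1). The difference was −1.98 (SE 0.32, adjusted p 0.00217). In wt, Hpcal1 was 2.90 higher in SC than in CN3/4 (adjusted p 9.42e-12), a contrast in which 948 genes passed (5.13%).

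At P56 Hpcal1 was measured at 76.6 to 108 CPM in 5 SC mSOD libraries (median 99.9) and at 150 to 315 CPM in 5 SC wt libraries (median 246), without overlap. In CN3/4 at P56 it was measured at 26.5, 30.3 and 32.1 CPM in mSOD and at 34.1, 23.0 and 22.3 CPM in wt, with overlap. The P56 difference was −1.63 (adjusted p 0.033), and Hpcal1 was the 1 gene that passed there as well (0.00541%), beside 1142 with an unadjusted p under 0.05 (6.18%). The P56 call was lost in 7 of the 16 fits that left out a library: without CN3/4 mSOD replicate 2 or 3, CN3/4 wt replicate 2 or 3, SC mSOD replicate 5, or SC wt replicate 3 or 5. The P56 difference ranged from −1.86 to −1.52 over the 16, with adjusted p of up to 0.218. At P112 its difference ranged from −2.27 to −1.78 when each of the 14 libraries was left out in turn, with adjusted p of at most 0.042. Within project P10814 alone, with 1 SC mSOD library, it was −1.86 with an adjusted p of 0.198, and in a fit of the 14 libraries alone it was −1.93 with an adjusted p of 0.237.

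Of 13 members of the calcium sensor family 10 were tested, Hpcal1 alone passed in SC and in the difference, and the median difference of the 10 was 0.37. Per transcript length (RPKM as deposited), the other abundant member was Vsnl1 (visinin-like 1), at 166 ± 62.2 (SD, n = 5) in SC wt beside 186 ± 48.3 for Hpcal1, and at 293 ± 50.2 (SD, n = 3) in CN3/4 wt beside 21.8 ± 3.66 for Hpcal1. In SC mSOD the mean level of Hpcal1 was 58.3 ± 13 RPKM (SD, n = 3) and that of Vsnl1 was 269 ± 127 RPKM. The Vsnl1 difference was 0.35 (adjusted p 0.939) and that of Ncs1, neuronal calcium sensor 1, was 0.39 (adjusted p 0.898). Of 28 calcium buffers, pumps, exchangers and channels, 0 passed in SC or in the difference with edgeR; the member with the smallest p was Cacna1e, a voltage-gated calcium channel subunit (difference −2.38, SE 0.88, adjusted p 0.553), which was at 28.2 CPM in SC wt replicate 1 and at 3.25 to 7.33 CPM in the other 4.

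The promoter window of Hpcal1 is shown because it is the gene whose difference passed. It runs from 250 bases before to 50 bases after the gene's start (chr12:17690559-17690858, plus strand, RefSeq, GRCm38.p6), and it held none of the motifs searched in the windows printed further on.
Hpcal1: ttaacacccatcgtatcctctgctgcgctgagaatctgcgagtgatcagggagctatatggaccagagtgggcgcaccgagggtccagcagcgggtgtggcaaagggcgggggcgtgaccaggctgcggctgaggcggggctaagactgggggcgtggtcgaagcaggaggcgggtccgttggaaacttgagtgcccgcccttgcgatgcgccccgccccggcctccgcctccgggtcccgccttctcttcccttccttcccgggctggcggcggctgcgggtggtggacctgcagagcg

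Behind Hpcal1, the genes with the smallest p among negative differences were led by Rab3b, Chodl and Itm2a, whose differences did not pass but which fell in SC. Rab3b (ENSMUSG00000003411), a small GTPase of synaptic and secretory vesicles, was measured at 132, 73.3 and 38.7 CPM in SC mSOD and at 184, 385, 376, 297 and 327 CPM in SC wt. The CN3/4 levels were 135, 131 and 111.8 CPM in mSOD and 98.9, 140 and 106 CPM in wt. All 3 SC mSOD libraries lay below all 5 SC wt libraries, and the CN3/4 groups overlapped. Rab3b fell by 1.78 in SC (SE 0.28, adjusted p 0.000191), its CN3/4 change was 0.13 (SE 0.27), and its difference was −1.91 (SE 0.38, adjusted p 0.0732). The 3 other Rab3 genes, Rab3a, Rab3c and Rab3d, had differences of 0.07, −0.29 and −0.74, with adjusted p of at least 0.937. The Rab3b difference passed without SC mSOD replicate 1 (−2.34), SC mSOD replicate 2, SC wt replicate 1 or SC wt replicate 4, and it was −1.35 (adjusted p 0.46) without SC mSOD replicate 3. Within project P10814 it was −1.25 (adjusted p 0.83). The motor neuron markers were also lower in SC mSOD replicates 2 and 3 than in SC wt replicates 2 to 5, and their part in the changes of Rab3b, Chodl and Mmp9 was not tested.

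Chodl (ENSMUSG00000022860) encodes chondrolectin, a membrane protein known as a marker of fast motor neurons. It was measured at 82.4, 88.8 and 28.3 CPM in SC mSOD and at 242, 527, 781, 598 and 580 CPM in SC wt. In CN3/4 it was measured at 133, 164 and 139 CPM in mSOD and at 81.2, 133 and 245 CPM in wt, so that 2 SC mSOD libraries lay above 1 of the 6 CN3/4 libraries and the third lay below all of them. Chodl fell by 3.06 in SC (SE 0.47, adjusted p 0.000263), its CN3/4 change was −0.08 (SE 0.44), and its difference was −2.98 (SE 0.63, adjusted p 0.106; −2.15 within project P10814). Mmp9, a metalloproteinase of fast motor neurons, fell by 1.62 in SC (adjusted p 0.0246), from 91.5 ± 26.5 CPM (SD, n = 5) to 25.4 ± 10.1 CPM (SD, n = 3). Its CN3/4 levels were 3.08 to 6.68 CPM and its difference was −1.08 (adjusted p 0.766); without SC mSOD replicate 3 its SC change was −1.16 with an adjusted p of 0.637, and the call was also lost without SC mSOD replicate 1, SC wt replicate 2 or SC wt replicate 3.

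Of 12 motor neuron subtype genes, Chodl and Mmp9 passed in SC, both lower, and 0 passed in the difference. Sv2a, a synaptic vesicle protein listed here as a marker of slow motor neurons, was measured at 87.7, 187 and 301 CPM in SC mSOD and at 213, 49.7, 36.4, 33.4 and 54.8 CPM in SC wt. Its groups overlapped through SC wt replicate 1, and its difference was 1.69 (adjusted p 0.519), which passed without that library or without SC mSOD replicate 1. Esrrb, an orphan nuclear receptor of slow and gamma motor neurons, had a difference of 1.35 (adjusted p 0.654), and Wnt7a, a ligand of gamma motor neurons, had one of 5.13 (SE 2.04, adjusted p 0.591). Within project P10814 the Sv2a difference was −0.54, and without SC mSOD replicate 3 it was 0.65.

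Itm2a (ENSMUSG00000031239), an integral membrane protein, was measured at 32.2, 35.9 and 7.40 CPM in SC mSOD and at 128, 380, 241, 143 and 175 CPM in SC wt. The CN3/4 levels were 10.4 to 28.9 CPM in all 6 libraries. It fell by 3.54 in SC (adjusted p 0.00225), to a level below the CN3/4 range in 1 library and just above it in the other 2, and its difference was −3.80 (SE 0.85, adjusted p 0.143). Without SC mSOD replicate 3 the SC call was lost (adjusted p 0.0832). Dkk3, a secreted glycoprotein of the dickkopf family, was measured at 71.4 to 94.4 CPM in SC mSOD and at 142 to 305 CPM in SC wt (fell by 1.59 in SC, adjusted p 0.000315, difference −1.54, adjusted p 0.147).

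The other negative differences with the smallest p were in Slc10a7 (−3.28), Atp8a1 (−1.59), Dgkk (−3.24), Gm20939 (−2.83) and Dpp10 (−1.77), with adjusted p of 0.135 to 0.147. Dgkk, a diacylglycerol kinase, was measured at 0, 1.16 and 0.673 CPM in SC mSOD, at 3.09 to 10.7 CPM in SC wt and at 17.9 to 53 CPM in CN3/4, so that unlike the genes above it was higher in CN3/4 in wt (SC minus CN3/4 −2.99, adjusted p 3.43e-05). Atp8a1, a phospholipid flippase, fell by 1.17 in SC (adjusted p 0.019), and Dpp10, an auxiliary subunit of Kv4 potassium channels, fell by 1.82 (adjusted p 0.000543). Dgkk fell by 3.31 in SC (adjusted p 0.00428), and the SC calls of all 3 were lost without SC mSOD replicate 3 (adjusted p 0.0748 for Dgkk, 0.682 for Atp8a1 and 0.066 for Dpp10); that of Atp8a1 was also lost without SC wt replicate 2.

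**Figure D3:**
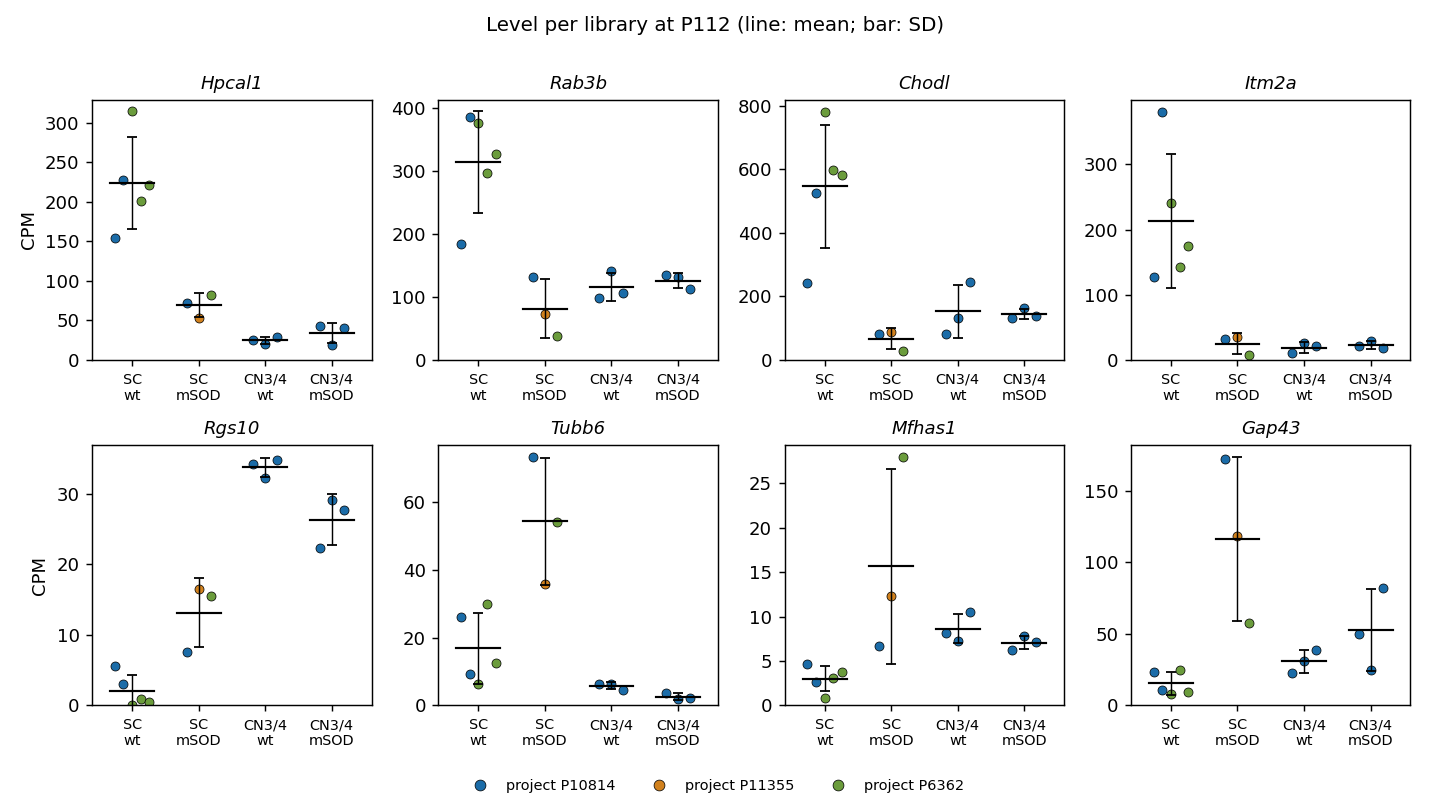
CPM of 8 genes in each of the 14 P112 libraries, with points coloured by project, a line at each group mean and a bar of 1 SD. In the upper row SC mSOD lies below SC wt and the CN3/4 groups overlap; in the lower row SC mSOD lies above SC wt.

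Cck, a neuropeptide gene, had a difference of −2.91 (SE 0.69, adjusted p 0.147). It was measured at 40.9, 54.7 and 31.6 CPM in SC mSOD and at 79.9 to 136 CPM in SC wt (change −1.28, adjusted p 0.328). In CN3/4 it was measured at 366, 314 and 1146 CPM in mSOD and at 212, 150 and 228 CPM in wt (change 1.63, SE 0.48, adjusted p 1). The other 3 Edinger-Westphal markers had CN3/4 changes of the same sign, 1.66 for Ucn, 1.51 for Cartpt and 1.76 for Postn, and CN3/4 mSOD replicate 3 had the top value of all 4. At P56 the Cck difference was −2.87 (adjusted p 0.165). Without CN3/4 mSOD replicate 3 the P112 difference was −2.06.

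Among positive differences the smallest p belonged to Rgs10, Tubb6 and Cd44. Rgs10 (ENSMUSG00000030844), a regulator that shortens G protein signals and is abundant in microglia, was measured at 7.56, 16.5 and 15.5 CPM in SC mSOD and at 5.57, 3.07, 0, 0.929 and 0.464 CPM in SC wt. The CN3/4 levels were 22.3 to 34.8 CPM in all 6 libraries, above every SC library. Its SC change was 2.52 (SE 0.48, adjusted p 0.00353) and its difference 2.87 (SE 0.62, adjusted p 0.106). Within project P10814 the SC change was 0.83 and the difference 1.18, and without SC mSOD replicate 3 the SC call was lost (2.06, adjusted p 0.163). Microglia markers summed to 45.8 to 118 CPM in SC mSOD and to 15.1 to 25.5 CPM in SC wt, and their part in the Rgs10 change was not tested.

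Tubb6 (ENSMUSG00000001473), a beta-tubulin, was measured at 73.1, 35.7 and 54.2 CPM in SC mSOD and at 26, 9.22, 6.22, 30 and 12.5 CPM in SC wt. In CN3/4 it was measured at 3.77, 1.79 and 2.31 CPM in mSOD and at 6.42, 6.35 and 4.68 CPM in wt, so the groups did not overlap in either nucleus (6.88% of genes did not in CN3/4) and lay in opposite orders. Its SC change was 1.74 (adjusted p 0.0147), its CN3/4 change −1.17 (SE 0.50, adjusted p 1) and its difference 2.91 (SE 0.63, adjusted p 0.106); the SC call was lost without SC mSOD replicate 1 or 3, or SC wt replicate 2 or 3 (adjusted p from 0.0508 to 0.146).

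Cd44, a receptor for hyaluronan on many cell types, glia included, was measured at 30.3, 24.6 and 1.01 CPM in SC mSOD and had at most 3 counts in each SC wt library, so that it was at least 14-fold higher in SC mSOD (adjusted p 0.0115). Its difference was 8.45 (SE 1.94, adjusted p 0.143) on fitted values that rest on counts near 0. Without SC mSOD replicate 1 or SC wt replicate 2 its SC change no longer passed (adjusted p 0.188 and 0.12).

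S100a11 (ENSMUSG00000027907), a calcium-binding protein of the S100 family, was measured at 39.8, 25.3 and 12.4 CPM in SC mSOD, at 0 to 4.33 CPM in SC wt and at 1.41 to 3.85 CPM in CN3/4. It rose by 3.48 in SC (SE 0.55, adjusted p 0.000307), its CN3/4 change was 0.06, and its difference was 3.42 (SE 0.88, adjusted p 0.233). The other positive differences with the smallest p were in Mfhas1 (2.66, adjusted p 0.156), Aars2 (2.03), Kyat3 (3.96), Sim2 (6.44), Ntm (2.03) and Itga7 (2.15), with adjusted p of at most 0.288. Within project P10814 the Mfhas1 difference was 1.18, that of Kyat3 2.46 and that of Ntm −0.01, while that of Itga7 was 3.41 and passed. Aars2 encodes the mitochondrial alanyl-tRNA synthetase and Itga7 a laminin receptor subunit. The Sim2 value rested on 1 SC library with 3.70 CPM and 7 SC libraries at 0, and the Itga7 value on SC mSOD replicate 1 at 179 CPM beside 46.8 and 37.7 CPM in the other 2. Of the 10 positive differences 8 had the same sign at P56, and of the 10 negative ones 9 did, where 55.3% of all genes tested did. The 2 ages share 1 fit and its project term, so these signs are not independent. With the same sign, 1 of the 10 positive and 6 of the 10 negative had an unadjusted p under 0.05 at P56. Over all genes 6.18% had one in either direction.

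Several genes of nerve injury and axon regrowth rose in SC. Of 20 tested members (of 23), Sprr1a, Gap43, Atf3 and Sox11 rose in SC, beside 0.195% of all genes, and 0 passed in the difference with edgeR. The median change of the 20 was 1.29 in SC and 0.04 in CN3/4, and the median difference was 1.19, against −0.02 over all genes; 16 of the 20 had a positive difference and 6 had an unadjusted p under 0.05, all 6 positive. Microglia markers were higher in the same 3 libraries. Without SC mSOD replicate 1 the median SC change was 0.64, the lowest of 16 alternatives, and the median difference ranged from 0.90 to 1.53 over 22 alternatives. At P56 the median difference of the 20 was 0.007, with 11 positive, against 0.07 over all genes. Members differed there: the P56 difference was 9.68 for Atf3, 1.43 for Sox11, 0.01 for Jun and −0.04 for Gap43. The P56 SC change of Sprr1a was −2.63 (adjusted p 0.406).

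Sprr1a (ENSMUSG00000050359), a small proline-rich protein that axotomized neurons are known to make, was measured at 802, 486 and 99.6 CPM in SC mSOD, with 296 to 2862 counts. It had at most 1 count in each SC wt library and at most 1 count in each CN3/4 library. It was at least 349-fold higher in SC mSOD than in SC wt (adjusted p 0.000164), while its difference had an SE of 10.8 because both CN3/4 groups were at or near 0, and no fold is given there. Gap43 (ENSMUSG00000047261), a growth cone protein, was measured at 172, 118 and 57.9 CPM in SC mSOD and at 7.99 to 25.1 CPM in SC wt. The CN3/4 levels were 50, 25 and 82.1 CPM in mSOD and 22.7, 31.3 and 38.8 CPM in wt, which overlapped. Its SC change was 2.84 (SE 0.41, adjusted p 0.000164), its CN3/4 change 0.76 (SE 0.43, adjusted p 1) and its difference 2.08 (SE 0.60, adjusted p 0.331).

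Atf3 (ENSMUSG00000026628), a stress-induced transcription factor, was measured at 134, 45.4 and 6.73 CPM in SC mSOD, at 0 to 1.86 CPM in SC wt and at 0.223 to 3.08 CPM in CN3/4. Its SC change was 6.36 (SE 1.34, adjusted p 0.0147) and its difference 5.59 (SE 2.04, adjusted p 0.553). The call was lost without SC mSOD replicate 1 (4.97, adjusted p 0.121), SC wt replicate 1 (adjusted p 0.0698) or SC wt replicate 2 (adjusted p 0.15). At P56 it was measured at 75.4, 3.24, 8.42, 40.5 and 0 CPM in the 5 SC mSOD libraries and at 0 to 0.593 CPM in SC wt (difference 9.68, adjusted p 0.171). Sox11, a transcription factor of growing neurons, was measured at 44, 45.4 and 33 CPM in SC mSOD, at 4.26 to 19.2 CPM in SC wt and at 9.87 to 17.6 CPM in CN3/4, with an SC change of 1.68 (adjusted p 0.018) and a difference of 1.45 (adjusted p 0.575). Its SC call was lost without SC mSOD replicate 1 or 3, or SC wt replicate 2 or 3 (adjusted p from 0.0508 to 0.251).

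Jun, the AP-1 transcription factor that works with Atf3, did not pass in SC (1.09, SE 0.33, adjusted p 0.153), although its groups there did not overlap, at 42.7 to 77.9 CPM in mSOD and 15.5 to 40.9 CPM in wt. In CN3/4 it lay at 17.9 to 25.5 CPM in mSOD and 28.1 to 33.4 CPM in wt, also without overlap and in the other direction, and its difference was 1.53 (SE 0.49, adjusted p 0.429). Gadd45a, a DNA damage and stress protein, had a difference of 2.33 (adjusted p 0.388), and Gal, the neuropeptide galanin, one of 3.89 (adjusted p 0.388) with SC mSOD values of 149, 16.7 and 0 CPM. Hspb1, a small heat shock protein of the same list, was measured at 295 to 802 CPM in SC mSOD and 314 to 743 CPM in SC wt, with a difference of 0.08.

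**Figure D4:**
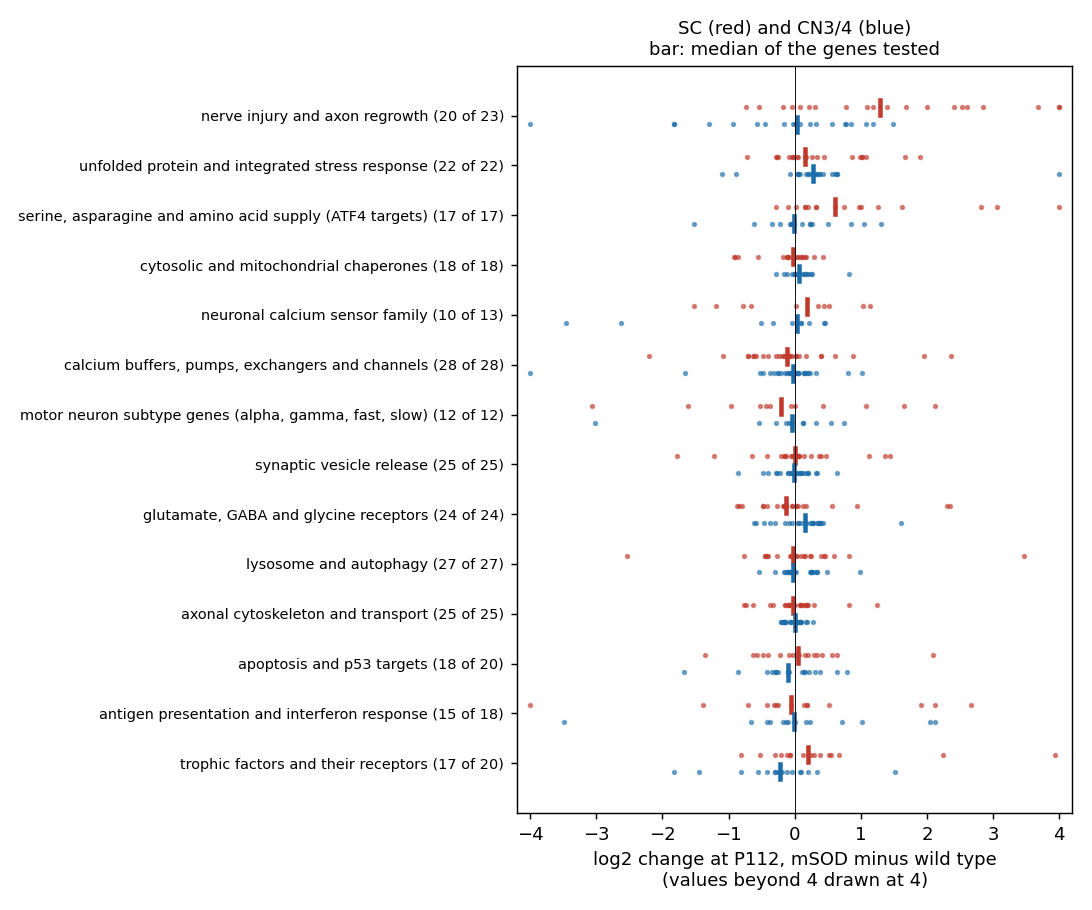
Log2 change from wt to mSOD of each tested member of 14 gene lists at P112 in SC (red) and CN3/4 (blue), with a bar at each median and the number tested of the number listed; values beyond 4 are drawn at 4. The nerve injury median is 1.29 in SC and 0.04 in CN3/4, and the amino acid supply median is 0.60 and −0.01.

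Promoter windows of Sprr1a, S100a11 and Atf3, which rose in SC, are shown because Atf3 and Jun bind known short motifs. Atf3 and Jun are among the transcription factors of the injury list, and S100a11 is not on that list. The windows to print were chosen after the values were seen. Windows from RefSeq (GRCm38.p6, 250 bases before to 50 after the start) were available for 22 of the 36 genes higher in SC and 40 of the 51 genes lower. The AP-1 motif TGANTCA, on either strand, was found in 4 of the 22 (18.2%: Ddit3, S100a11, Sprr1a and Vps13d) and in 1 of the 40 (2.5%), against 6.24% of 11296 tested genes with a window and 8.97% of all 27025 genes with one. TGATGNAA, the amino acid response element bound by ATF4 dimers, was found in 4 of the 22 (18.2%: Apoe, Atf3, Fgf21 and Hcn4) and in 0 of the 40, against 2.87% and 4.51%. The cAMP response element TGACGTCA was found in 0 of the 22 and 2 of the 40. These counts are small and a match is a description of letters. Sprr1a and S100a11 held 2 AP-1 matches each, in capitals, beginning 146 and 116 bases (Sprr1a) and 136 and 38 bases (S100a11) before the start; Atf3 held 1 TGATGNAA match, in capitals on the opposite strand, beginning 110 bases before it. The windows are Sprr1a (chr3:92485832-92486131, minus strand), S100a11 (chr3:93520246-93520545, plus strand) and Atf3 (chr1:191183284-191183583, minus strand).
Sprr1a: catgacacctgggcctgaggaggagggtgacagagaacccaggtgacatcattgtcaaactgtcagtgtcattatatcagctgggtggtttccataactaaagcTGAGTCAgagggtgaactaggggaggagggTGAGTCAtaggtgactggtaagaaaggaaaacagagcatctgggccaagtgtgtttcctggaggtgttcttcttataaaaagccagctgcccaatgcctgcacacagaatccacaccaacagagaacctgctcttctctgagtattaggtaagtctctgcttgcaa
S100a11: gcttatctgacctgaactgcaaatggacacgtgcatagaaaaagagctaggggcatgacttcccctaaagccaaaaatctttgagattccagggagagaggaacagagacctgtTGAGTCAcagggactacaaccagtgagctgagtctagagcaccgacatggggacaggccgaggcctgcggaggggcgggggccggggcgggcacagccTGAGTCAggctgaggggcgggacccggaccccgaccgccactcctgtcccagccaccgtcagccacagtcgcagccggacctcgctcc
Atf3: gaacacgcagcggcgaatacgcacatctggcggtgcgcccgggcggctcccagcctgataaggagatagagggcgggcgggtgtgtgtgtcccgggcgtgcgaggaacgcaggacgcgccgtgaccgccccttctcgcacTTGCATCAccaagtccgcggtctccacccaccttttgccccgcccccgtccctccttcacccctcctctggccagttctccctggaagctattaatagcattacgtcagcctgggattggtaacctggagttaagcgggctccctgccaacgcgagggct

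Atf4 and Ddit3 rose in SC. Atf4 was measured at 189, 102 and 110 CPM in SC mSOD and at 56.8 to 79.9 CPM in SC wt, with an SC change of 1.02 (SE 0.24, adjusted p 0.033). In CN3/4 it was measured at 43.9 to 93.4 CPM in mSOD and 56.6 to 69.3 CPM in wt (change 0.05), and its difference was 0.96 (adjusted p 0.566). Ddit3, a pro-apoptotic transcription factor downstream of ATF4, was measured at 129, 49.6 and 33.6 CPM in SC mSOD, at 13.3 to 21.8 CPM in SC wt and at 9.14 to 29.2 CPM in CN3/4. Its SC change was 1.90 (adjusted p 0.0149) and its difference 1.82 (SE 0.61, adjusted p 0.461); at P56 its difference was 2.45 (adjusted p 0.171). Without SC mSOD replicate 1 neither SC call held (adjusted p 0.312 for Atf4 and 0.272 for Ddit3), nor did either without SC wt replicate 1 or 2, and that of Atf4 was also lost without SC mSOD replicate 3 or SC wt replicate 3 or 4.

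Of 17 amino acid synthesis and transport genes known as ATF4 targets, Psat1 and Slc7a3 rose in SC, beside 0.195% of all genes, and 0 passed in the difference. Psat1, the aminotransferase of serine synthesis, was measured at 114, 77.2 and 41.7 CPM in SC mSOD, at 12.4 to 30.3 CPM in SC wt and at 14.1 to 35.0 CPM in CN3/4 (SC change 1.62, adjusted p 0.0262, difference 1.66, adjusted p 0.469). Psph, the phosphatase that completes serine synthesis, had a difference of 1.61 (adjusted p 0.519). Slc7a3, a transporter of cationic amino acids, was at least 4.98-fold higher in SC mSOD, where it was at 10.9, 3.48 and 5.38 CPM (adjusted p 0.0221). The median difference of the 17 was 0.74, with 14 positive; the SC median was 0.60 and the CN3/4 median −0.01. Without SC mSOD replicate 1 the SC median was 0.10 and the median difference 0.21. Neither Psat1 nor Slc7a3 passed in SC without SC mSOD replicate 1 or 3, or SC wt replicate 2 or 4; the Psat1 call was also lost without SC wt replicate 3 and that of Slc7a3 without SC wt replicate 1.

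The other genes of the unfolded protein response did not pass. Of 22 genes on that list, Atf4 and Ddit3 passed in SC and 0 in the difference, and the median change was 0.16 in SC and 0.28 in CN3/4, with 19 of 22 positive in CN3/4. Hspa5, the main chaperone of the endoplasmic reticulum, was measured at 232 to 252 CPM in SC mSOD and 184 to 260 CPM in SC wt. Dnajc3, its co-chaperone, had a difference of −0.91 (adjusted p 0.598), with a CN3/4 change of 0.64 and groups that did not overlap there (23.3 to 41.6 CPM in mSOD, 20.5 to 21.9 CPM in wt). Of 18 cytosolic and mitochondrial chaperones 0 passed in SC or in the difference; Bag3, a co-chaperone of selective autophagy, had a difference of −0.79 (adjusted p 0.755) and Dnajb2 one of 0.72 (adjusted p 0.786).

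The median difference was 0.04 for the synaptic vesicle list, 0.01 for the cytoskeleton list and −0.30 for the receptor list, against −0.02 over all genes. Of 25 synaptic vesicle genes Rab3b passed in SC; Cplx2 (complexin 2) and Syt7 (synaptotagmin 7) had differences of 2.30 and 1.40, with adjusted p of 0.553 and 0.602. Of 24 glutamate, GABA and glycine receptor genes 0 passed, and 17 had a negative difference. Gabra2, a subunit of the GABA-A receptor, had a difference of −1.20 (adjusted p 0.668), and Gria1, an AMPA receptor subunit, one of −1.59 (adjusted p 0.592) that came from a CN3/4 change of 1.61 beside 0.02 in SC. Gria1 was measured at 9.43, 5.59 and 12.9 CPM in CN3/4 mSOD and at 1.97, 3.06 and 4.01 CPM in CN3/4 wt.

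Of 25 axonal cytoskeleton and transport genes Ina, an intermediate filament protein, rose in SC (1.24, adjusted p 0.018), but its groups overlapped through SC wt replicate 1 at 494 CPM, and within project P10814 its SC change was −0.18. Without SC mSOD replicate 3 it was 0.52, and the call was also lost without any 1 of SC wt replicates 2 to 5 (adjusted p from 0.0547 to 0.108). The neurofilament genes Nefm and Nefl had differences of −0.78 and −0.74 (adjusted p 0.63 for both) and lay between 2259 and 9579 CPM. Of 27 lysosome and autophagy genes, Cd63, a tetraspanin of late endosomes, rose in SC (3.46, adjusted p 0.000191) at 111, 26.9 and 23.2 CPM against 2.13 to 6.04 CPM. Its CN3/4 levels were 20.4 to 33.9 CPM in mSOD and 7.05 to 15.8 CPM in wt, again without overlap and in the same direction (change 0.99, adjusted p 1), and its difference was 2.48 (adjusted p 0.351), or 3.84 within project P10814, where it passed. Reads of Cd63 and its pseudogene Cd63-ps, which had an SC change of 3.36, may have been shared between them in the counting. The cathepsin gene Ctsb, a lysosomal protease also abundant in microglia, had a difference of 0.63 (adjusted p 0.575); Tfeb, a regulator of lysosome genes, had one of −2.48 (adjusted p 0.701) and Atg5, an autophagy conjugation factor, one of −0.75 (adjusted p 0.694).

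Of 18 tested apoptosis and p53 genes 0 passed; Sesn1, a stress-responsive p53 target, had a difference of −1.66 (SE 0.50, adjusted p 0.351), at 3.71 to 9.08 CPM in SC mSOD and 13 to 20.4 CPM in SC wt. Of 15 tested antigen presentation and interferon genes 0 passed, and Tap1, a peptide transporter, had a difference of −7.01 on counts near 0 (SE 3.03). Of 17 tested trophic factor genes 0 passed, and Ntrk2, the receptor of BDNF, had a difference of −0.63 (SE 0.28, adjusted p 0.641).

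Genes that passed in SC at P56 were read at P112; the libraries of the 2 ages differ but share 1 fit, its project term and its estimate of the spread, so the P56 calls are not independent of the P112 libraries. At P56, 100 genes passed in SC (0.541%). The 58 genes higher in mSOD there (0.314%) had a median SC change of 0.70 at P112, with 44 positive, a median CN3/4 change of 0.16, with 41 positive, and a median difference of 0.51, with 40 positive. The 42 genes lower in SC at P56 (0.227%) had medians of −0.64 in SC, with 38 negative, 0.02 in CN3/4, with 20 negative, and −0.74 for the difference, with 36 negative. Over all genes 48.9% of the P112 differences were positive.

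The difference also followed where a gene stood in healthy neurons. For this, genes were sorted by their level in the 2 SC and 3 CN3/4 wt libraries of P56 from project P11355. These libraries were not in the P112 groups but share the fit of all 54 libraries and its project term. The sets are therefore not independent of the P112 changes. This sorting was added after the data were seen. Of 644 genes higher in SC there, 481 (74.7%) had a negative P112 difference, with a median of −0.49, and of 259 genes higher in CN3/4 there, 180 had a positive one, with a median of 0.35. Among the 16690 genes in neither set 50.6% were negative. The median SC change was −0.42 for the first set and 0.29 for the second, and the median CN3/4 changes were 0.04 and −0.11. Within project P10814 alone, which holds none of the sorting libraries and 1 SC mSOD library, 68.6% of the first set were negative. There 52.7% of the genes in neither set were negative. In the second set 151 of 258 were positive there, and the median SC change was 0.06. Hpcal1, Rab3b, Chodl, Itm2a and Dkk3 belonged to the genes higher in SC, and Rgs10, Aars2, Sim2 and Sv2a to those higher in CN3/4. Tubb6 and Itga7, higher in SC, and Dgkk, higher in CN3/4, had differences of the other sign.

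A score per library gave the same comparison in numbers, as the mean log2 CPM of the first set minus that of the second. It was 1.424, 2.20, 2.08, 1.77 and 1.80 in SC wt and 1.45, 1.47 and 0.90 in SC mSOD, while CN3/4 lay between −1.81 and −1.24. SC wt replicate 1, which held more interneuron markers than the other SC wt libraries, lay below 2 of the 3 SC mSOD libraries, so that the groups overlapped.

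**Figure D5:**
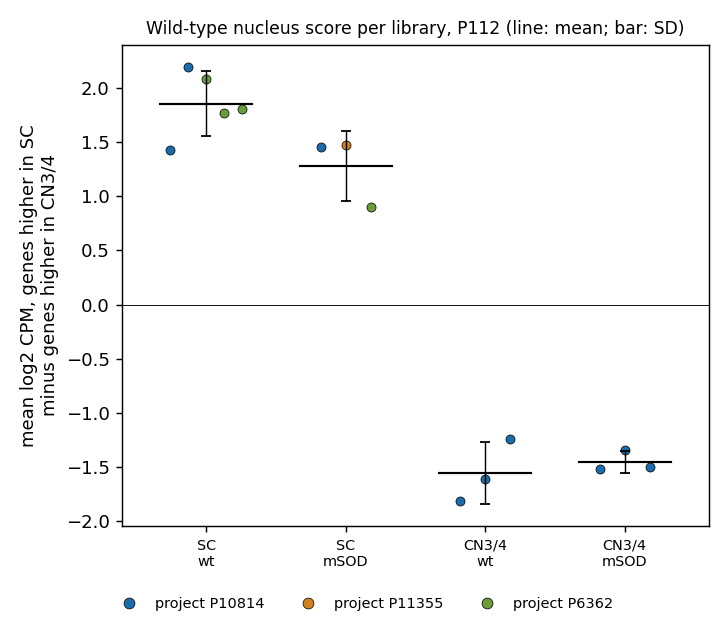
Mean log2 CPM of genes higher in wt SC minus that of genes higher in wt CN3/4, both sets taken from P56 libraries, in each of the 14 P112 libraries, with points coloured by project, lines at group means and bars of 1 SD. SC mSOD lies at 0.90 to 1.47 and SC wt at 1.424 to 2.20, and every SC library lies above every CN3/4 library.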

How the data were processed

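Laser-captured motor neurons were sequenced in 54 libraries, of which the 14 of SC and CN3/4 at P112 were compared here. The authors deposited whole-number read counts per gene and RPKM values; STAR 2.7.0e and the build GRCm39 (mm39) appear in the submitters' processing notes, while the counting program, its use of strand and the annotation are not given in the sources used here. The deposited RPKM values served only to compare levels between genes. Libraries were grouped by the labels' nucleus, age and genotype. Of 55354 mouse genes, 52079 had a symbol under their identifier.

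The test was edgeR's (version 4.0.16, R 4.3.3). Alternatives used limma (3.58.1) or DESeq2 (1.42.0). All 54 libraries entered 1 fit with a mean for each of 16 groups and a term for project, after filterByExpr, with TMM factors from 0.847 to 1.12. Project was read from the prefix of the library names. The quasi-likelihood F test was two-sided; Benjamini-Hochberg adjustment ran over all 18493 mouse genes tested, and an adjusted p under 0.05 passed. The human SOD1 entry stayed in the library sizes. CPM divides by TMM-scaled library size; its log2 adds a prior count of 2. Smart-seq2 has no molecular identifiers, so counts are reads. A fold against a group with at most 3 counts in every library sets each of these to 3 counts, as a lower bound. The fit was tested on simulated counts.

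Genes were named by rule: SOD1 and Sod1; genes that passed in the difference; the 10 in each direction ranked first by p there with a mean of at least 10 CPM in 1 of the 4 groups; up to 6 per direction that passed in SC without overlap; and up to 4 per pathway list by p in the difference and in SC, or else 2. S100a11, Sprr1a, Atf3 and Hpcal1 promoters, and Hspa5, Hspb1, Vsnl1, Ncs1 and the Rab3 relatives, were chosen after their values were seen. The members and lists were chosen with earlier results of these data known. Alternatives changed the tool, normalization, filter, project term, samples fitted and single libraries. Some genes that the rule names are not reported here.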

Additional observations from a re-analysis of the deposited data

Results flagged for a closer look

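The mSOD effect on Hpcal1 differed between SC and CN3/4 by edgeR's test of the difference itself at both ages, at −1.98 at P112 and −1.63 at P56. The P112 call held without each of the 14 libraries but was lost in a fit of the 14 libraries alone (adjusted p 0.237). Within project P10814, with 1 SC mSOD library, the P112 difference was −1.86. The P56 call was lost in 7 of 16 fits that left out 1 library (adjusted p of up to 0.218) and with no project term (adjusted p 0.181).

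Dixon's criterion was applied to 61 values in the 5 SC wt libraries (60 named genes and the nucleus score). Its chance rate of about 1 in 20 does not hold for CPM near 0. There 1 library with reads beside 4 at 0 is always flagged. In 8 of the 61 values 1 library lay apart from the other 4. SC wt replicate 1 was the high one in 5 of them: Cd44 at 0.928 CPM with 0 in the next, Kyat3 at 5.26 CPM with 1.419 in the next, Ina at 494 CPM with 211 in the next, Sv2a at 213 CPM with 54.8 in the next and Cacna1e at 28.2 CPM with 7.33 in the next. This is the library with more interneuron and glutamatergic markers than the others of its group; their part in these values was not tested. The other 3 values rest on few counts. They are Slc7a3 at 0.473 CPM in replicate 2, Tap1 at 2.79 CPM in replicate 5 and Sprr1a at 0.888 CPM in replicate 3. The value of Cd44 also rests on few counts, 3 in SC wt replicate 1.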

How the results depend on the processing

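The number of genes in the P112 difference, 1, was 25 with DESeq2, 8 with limma voom, 105 with no filter on low counts, 2 with no project term, 3 within project P10814 and 0 in a fit of the compared groups only (1094 at an unadjusted p under 0.05). In SC, 87 became 206 with DESeq2, 164 with limma voom, 265 with no filter, 31 within P10814 and 13 in the compared groups only. In CN3/4, 0 became 4 with DESeq2, 1 with limma voom and 32 with no filter. For the P56 difference, 1 became 21 with DESeq2, 12 with limma voom, 68 with no filter, 0 with no project term and 4 in the compared groups only. The wt contrast of SC and CN3/4, 948, became 1745 with limma voom and 1575 with no project term. Leaving out 1 library at a time gave 1 to 28 genes in the P112 difference, 20 to 174 in SC, 0 to 1 in CN3/4, 0 to 3 in the P56 difference and 534 to 903 in the wt contrast. The SC change of Ina was −0.18 within P10814. Why these counts moved was not tested. Of 1318 values of named genes in the difference under the alternatives, 1240 stayed on the same side of the threshold. A call was gained in 76 values, of 28 genes, and lost in 2, both of Hpcal1. Hpcal1, the 1 gene called in the main fit, kept its sign. Some genes without a call changed sign, among them Sv2a (−0.54 within P10814) and Ntm (−0.01 within P10814). The contrast of the baseline gene sets and its alternatives were added after the data were seen: its median difference between the sets was −0.83, and ranged from −1.18 without SC mSOD replicate 1 to −0.50 within P10814. No paired analysis was possible because the labels carry no replicate numbers. With 3 libraries in an arm the precision is limited: differences of more than 4 standard errors, such as those of Rab3b, Chodl and Rgs10, did not pass.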

Other observations

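The deposited RPKM values of Rab3b were not proportional to its counts. The ratio of RPKM to CPM was between 0.408 and 0.468 in 7 of the 14 libraries and between 0.893 and 1.25 in the other 7, and both kinds occurred in SC mSOD, SC wt and CN3/4 wt. In CN3/4 wt, Rab3b was measured at 98.9, 140 and 106 CPM, but at 117, 175 and 46.2 RPKM. Among 140 listed or named genes with at least 50 counts in each of the 14 libraries, 15 had ratios that ranged over more than 2-fold, and the median range was 1.21-fold. Dync1h1, Mapt and Kif5b, genes of axonal transport and microtubules, ranged over 3.31-fold, 3.29-fold and 3.01-fold. For Hpcal1 and Vsnl1 the range was 1.16-fold. How the deposited RPKM values were scaled by length is not given in the sources used here, and the tests on counts do not use them.

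In the CN3/4 libraries Cartpt, a peptide gene of the Edinger-Westphal nucleus, was measured at 7385, 6892 and 19881 CPM in mSOD and at 5302, 1951 and 4728 CPM in wt, against at most 278 CPM in SC. The groups did not overlap, and the CN3/4 change was 1.51.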
